A study of Mus musculus with 2 samples.

Results

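The genes described here are the 4 myogenic regulatory factors *Myod1*, *Myog*, *Myf5* and *Myf6*, the Mef2 factors *Mef2a*, *Mef2c* and *Mef2d*, and the homeobox or paired-box genes *Six4* and *Pax7*. They were found on the arrays by gene name, current or older, among the probes that are not controls and lie on both arrays. All 9 genes had a probe, with 14 probes in all, out of 27555 named genes and transcripts. A gene counted as measured when, on each array, either channel of a probe stood well above background, and 7 of the 9 did, against 13589 genes in all. *Myf5* and *Six4* were not measured by that rule, and their values are given without a fold.

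RNA came from GAS muscle (gastrocnemius, the large mixed-fibre muscle of the calf) of mice aged 15 weeks. *Gde5* skKO mice lack *Gde5* (*Gpcpd1*), the enzyme that cleaves glycerophosphocholine, in skeletal muscle. They carry floxed *Gde5* alleles and a Cre transgene driven by the human alpha-skeletal actin promoter, which acts in muscle fibres, so cells in the muscle that do not use this promoter keep the gene. The controls, called WT, were floxed littermates without Cre, so both groups share the floxed alleles, the C57BL/6 background and the male sex. The *Gde5* skKO RNA carried Cy5 on array 1 and Cy3 on array 2, against WT RNA in the other dye. The labels name 5 mice of each genotype but give neither pooling nor a fasting or glucose state, nor whether both arrays held the same RNA. No value below therefore speaks for the spread between mice. The paper describes comparisons of both genotypes after a glucose injection and under fasting, and does not say which state either array holds.

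The myogenic regulatory factors are basic helix-loop-helix proteins that pair with E proteins and bind E-boxes, the letters CANNTG, in the control regions of muscle genes. *Myod1* and *Myf5* commit cells to the muscle lineage, *Myog* drives terminal differentiation, and *Myf6* is the member best known from adult fibres. Mef2 proteins bind A/T-rich sites and act together with the myogenic factors, and in adult fibres class IIa histone deacetylases hold them back until calcium-dependent kinases release them. *Six4* and its relatives bind MEF3 sites with Eya co-activators, and *Pax7* marks satellite cells, the stem cells of muscle.

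The *Myog* promoter is shown because letters that match the sites of several of these families lie within a short stretch of it. It is shown with the promoters of *Myh3* and *Chrna1*, target genes of the myogenic factors that were called higher by more than 1 probe, as described below. Each sequence is the 250 bases before the gene's start in RefSeq on GRCm38.p6, 5′ to 3′ on the gene's own strand. Capitals mark E-boxes (CANNTG), the MEF3 letters TCAGGTTTC, and the relaxed MEF2 consensus, in which the outermost base on 1 side may be any base, each searched on both strands. The relaxed consensus was added after the promoters were read, so its matches are no independent support.
*Myog*, chr1:134289754-134290003, plus strand: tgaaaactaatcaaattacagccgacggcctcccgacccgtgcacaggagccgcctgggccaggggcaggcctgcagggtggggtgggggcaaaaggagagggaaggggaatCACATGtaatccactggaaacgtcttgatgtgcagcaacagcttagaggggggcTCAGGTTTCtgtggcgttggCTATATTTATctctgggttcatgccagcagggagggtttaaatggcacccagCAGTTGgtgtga
*Myh3*, chr11:67078050-67078299, plus strand: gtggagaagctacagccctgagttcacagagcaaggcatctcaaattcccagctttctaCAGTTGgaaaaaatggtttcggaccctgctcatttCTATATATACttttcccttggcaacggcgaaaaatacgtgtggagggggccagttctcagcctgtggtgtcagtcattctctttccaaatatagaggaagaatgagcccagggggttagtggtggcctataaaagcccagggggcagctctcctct
*Chrna1*, chr2:73580339-73580588, minus strand: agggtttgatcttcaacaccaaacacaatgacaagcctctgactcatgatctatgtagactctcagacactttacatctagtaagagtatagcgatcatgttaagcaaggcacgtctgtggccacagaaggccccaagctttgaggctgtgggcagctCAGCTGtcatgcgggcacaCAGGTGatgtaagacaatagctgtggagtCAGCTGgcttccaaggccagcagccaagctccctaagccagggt
*Myog* held E-boxes that begin 138 and 12 bases before the start, the MEF3 letters at 84 and the relaxed MEF2 letters CTATATTTAT at 64. *Chrna1*, the alpha subunit of the muscle acetylcholine receptor, held 3 E-boxes at 92, 73 and 44 bases before its start, and those at 92 and 44 read CAGCTG. *Myh3*, the embryonic myosin heavy chain, held 1 E-box at 191 bases and the relaxed MEF2 letters CTATATATAC at 156, which overlap a run of alternating T and A. An E-box is common, with 72.3% of all 32851 promoter windows of 300 bases holding one, against 16.3% for CAGCTG, 7.66% for the relaxed MEF2 consensus, 3.19% for the strict one and 0.429% for MEF3.

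By the same search, *Mef2a* held the strict MEF2 consensus, CTAAAAATAG, beginning 2 bases before its start. *Six4* held the MEF3 letters on the other strand, 99 bases before its start. Of the 7 members with a window, 2 held an E-box (*Myog* and *Mef2c*), 3 the relaxed MEF2 consensus (*Myog*, *Mef2a* and *Mef2c*) and 2 the MEF3 letters (*Myog* and *Six4*). The strict MEF2 consensus was held by 1 of the 7, *Mef2a*, and the count for the relaxed one follows from a pattern chosen after reading. A match is a run of letters and was not tested as a site.

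None of the 7 measured factors was called. A call needed a Feature Extraction p-value under 0.05 on each array, from the scanner software's error model for a spot, and a ratio of *Gde5* skKO over WT in the same direction on both. Of all 13589 measured genes 3.31% were called, 1.58% higher and 1.73% lower, and none of the 11 measured member probes was called against 3.06% of all 19073 measured probes. At that background share, 0 of 7 is no sign that the factors differ from other genes. The moderated test of limma calls 8.49% of genes before adjustment and 0.787% after, and 0 of the 7 either way. By the methods' t-test before adjustment, 458 genes were higher and 440 lower of 13589, and 1 of the 7 was called, *Pax7*. That test compares channel values of the genotypes without pairing them by array. By its Feature Extraction ratios *Pax7* had opposite directions on the arrays, at -0.19 and 0.76. After adjustment the t-test called 0 members and 0 genes in either direction.

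*Gpcpd1*, listed under its older name Prei4, fell on both arrays by 3 of its 4 probes, with mean log2 ratios of -2.93, -2.97 and -3.18. The fourth probe was at -0.26 and was not called. Between 44.6% and 53.2% of the spots were well above background in each channel, and the median ratio over all measured genes was 0.0084 (log2) on array 1 and 0.016 on array 2.

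**Figure D1:**
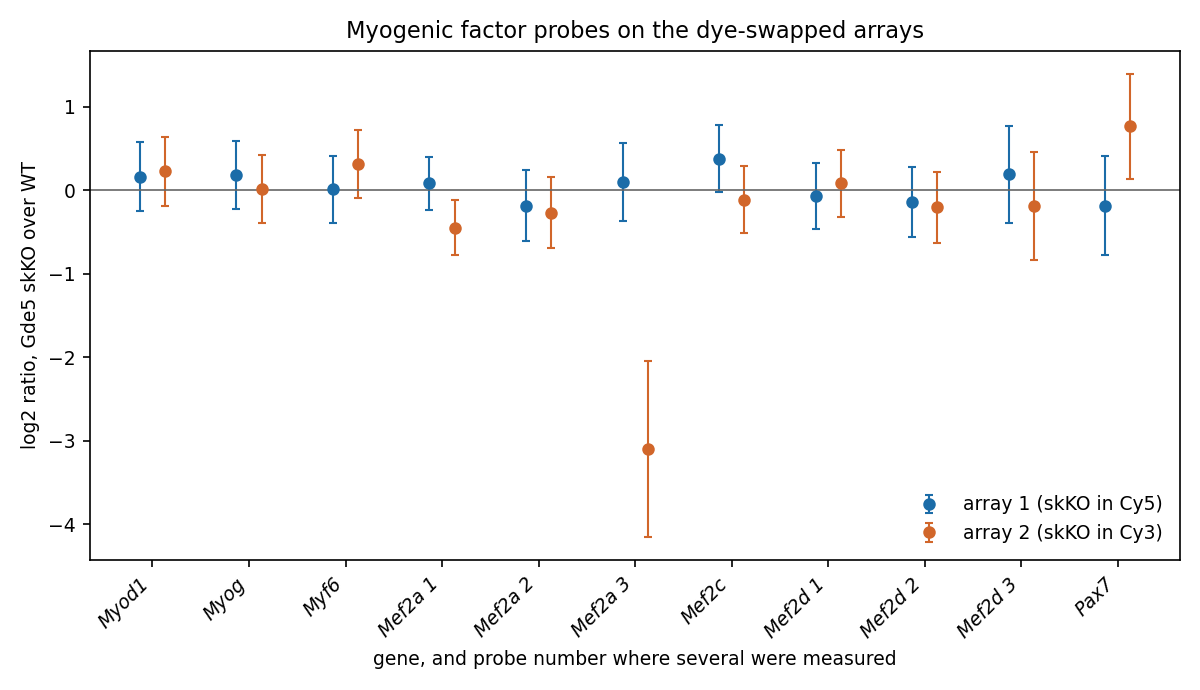
The log2 ratio of *Gde5* skKO over WT (vertical axis) for the 11 measured probes of the myogenic and Mef2 factors and *Pax7* (horizontal axis), with array 1 in blue and array 2 in orange. Bars are the 95% interval of the Feature Extraction error model, which holds 0 for 11 of 11 probes on array 1 and for 8 of 11 on array 2.

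Among the myogenic regulatory factors, *Myod1* was the factor with the steadiest readings. Its probe (chromosome 7, 46246628 to 46246687, plus strand, mm8) is printed 10 times on each array, and 7 spots on array 1 and 10 on array 2 carried no outlier mark. On array 1 its signal, in units of dye-normalized intensity as a geometric mean over spots, was 321 in WT and 359 in *Gde5* skKO muscle. On array 2 it was 390 in WT and 456 in *Gde5* skKO muscle. All 17 of these spots read higher in *Gde5* skKO, with log2 ratios of 0.16 ± 0.061 (SD over 7 spots) on array 1 and 0.23 ± 0.073 (SD over 10 spots) on array 2. That count leaves out a marked spot of array 1 that read lower, at -0.068. With marked spots kept, 9 of 10 spots on array 1 were higher, with a mean of 0.13. The spots are repeats of 1 hybridization and not of mice, and the software gives each spot an error near 0.21, so no single spot passed the threshold. The median Feature Extraction p was 0.433 on array 1 and 0.347 on array 2. Over both arrays limma's moderated test gave a fold of 1.09 with a 95% interval from 0.936 to 1.27 and an adjusted p of 0.940, so an increase of up to 1.27-fold is within its interval.

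*Myog*, whose promoter is shown above, read higher on array 1 and near equal on array 2. Its probe (chromosome 1, 136108708 to 136108767, plus strand, mm8) is also printed 10 times, with 9 unmarked spots on each array. The signal was 549 in WT and 623 in *Gde5* skKO muscle on array 1, where 9 of 9 spots were higher. On array 2 it was 660 in WT and 665 in *Gde5* skKO muscle, and 6 of 9 spots were higher. The log2 ratios were 0.18 ± 0.068 (SD over 9 spots) and 0.012 ± 0.075, with median p of 0.301 and 0.822. By limma the fold was 1.05, with an interval from 0.888 to 1.24. With the normexp and loess ratios behind that fold, array 2 fell on the other side of 0 at -0.046.

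**Figure D2:**
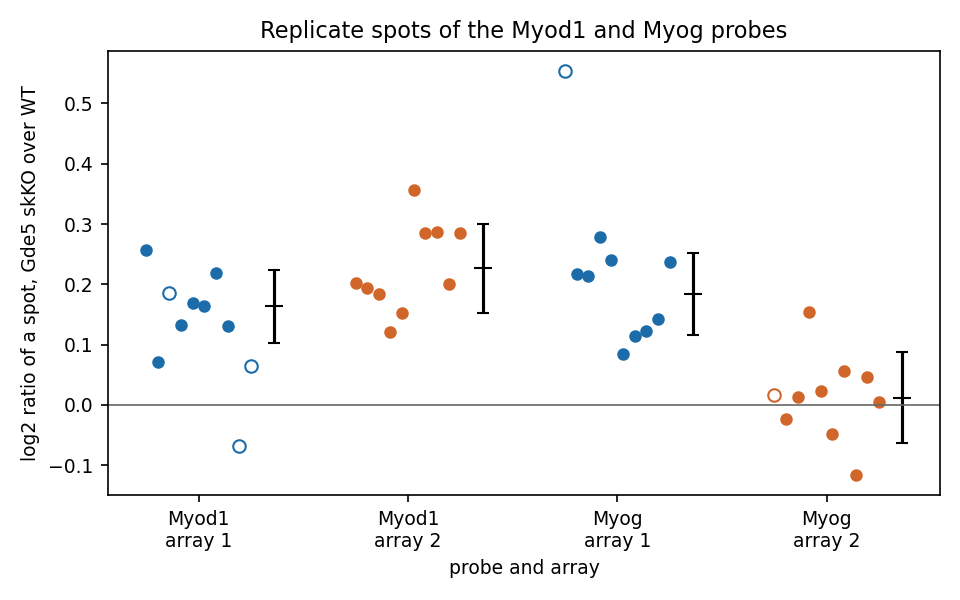
Log2 ratio of *Gde5* skKO over WT (vertical axis) of each spot of the *Myod1* and *Myog* probes on array 1 (blue) and array 2 (orange), with open circles for spots that carried an outlier mark and black bars for the mean and SD of the others. The 17 filled *Myod1* spots lie above 0 on both arrays, and for *Myog* 15 of 18 do, with a marked spot on array 1 standing apart at 0.55. A marked *Myod1* spot on array 1 lies below 0, at -0.068.

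*Myf6* had 1 spot on each array (chromosome 10, 106897291 to 106897350, minus strand, mm8). Its signal was 10072 in WT and 10156 in *Gde5* skKO muscle on array 1, and 9974 and 12405 on array 2. The log2 ratios were 0.012 and 0.31, with p of 0.953 and 0.127, so the arrays overlap within the error of 0.20 to 0.21 given to each spot. The fold by limma was 1.10 with an interval from 0.885 to 1.36. On array 1 the loess ratio was -0.13 both with normexp and with no background correction, so the direction on that array turned with the normalization.

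*Myf5*, next to *Myf6* on chromosome 10 (probe 106887028 to 106887087, minus strand, mm8), had 9 unmarked spots on each array, and none of them was well above background in the channel of WT or of *Gde5* skKO. The spots read between 5.65 and 14.2 in WT and between 5.61 and 10.8 in *Gde5* skKO muscle on array 1. On array 2 they read between 8.65 and 14.2 in WT and between 6.92 and 24.3 in *Gde5* skKO muscle. Many of these values are surrogates, put in by the software where it found no signal above background. On array 1 they stood in 4 of 9 spots for WT and 9 of 9 for *Gde5* skKO. On array 2 they stood in 9 of 9 spots for WT and 3 of 9 for *Gde5* skKO. These signals give only that *Myf5* was not well above background in whole GAS muscle of either genotype.

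Of the Mef2 factors, *Mef2a* had the lowest mean ratio and its 3 probes disagreed. The first and brightest probe, which stands for the gene (chromosome 7, 67110637 to 67110696, minus strand, mm8), read 502 in WT and 530 in *Gde5* skKO muscle on array 1. On array 2 it read 519 in WT and 380 in *Gde5* skKO muscle. The log2 ratios of 0.080 and -0.45 had opposite directions, with p of 0.624 and 0.00856. By these ratios the Cy5 channel was the brighter on both arrays whichever genotype it held. With normexp ratios the probe was instead lower in *Gde5* skKO on both, at -0.25 and -0.0093.

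The second *Mef2a* probe (67113462 to 67113521) was lower on both arrays, from 310 to 272 and from 349 to 289, with log2 ratios of -0.19 and -0.27 and p of 0.387 and 0.214. The third (67113807 to 67113866) read 152 in WT and 163 in *Gde5* skKO muscle on array 1. On array 2 it read 154 in WT and 18.0 in *Gde5* skKO muscle, a log2 ratio of -3.10 with p of 8.17e-09. That 18.0 is a surrogate that the software put in place of a signal it did not find above background, so the ratio is not a measured fold, and its own array 1 value does not share the direction. By limma the 3 probes were at -0.13, -0.11 and -0.22, with intervals that all held 0.

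*Mef2c*, a factor of muscle and heart development, was measured by 1 of its 2 probes (chromosome 13, 84141092 to 84141151, plus strand, mm8). Its signal was 4996 in WT and 6495 in *Gde5* skKO muscle on array 1, and 7917 and 7325 on array 2. The log2 ratios were 0.38 and -0.11, with p of 0.0673 and 0.583, again with Cy5 the brighter channel on both arrays. The other probe (84055461 to 84055520) did not stand well above background for WT or *Gde5* skKO.

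*Mef2d*, the third Mef2 factor measured, had 3 measured probes and none stood apart from 0. The brightest (chromosome 3, 88257782 to 88257841, plus strand, mm8) read 23974 in WT and 22838 in *Gde5* skKO muscle on array 1, and 28014 and 29711 on array 2. Its log2 ratios were -0.070 and 0.085, and limma's fold of 1.03 had an interval from 0.881 to 1.20. The second probe, mapped across 347 bases from 88254219 to 88254565, was at -0.14 and -0.21. The third (88254330 to 88254389), which lies within that stretch, was at 0.19 and -0.19.

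*Pax7* had the largest mean ratio of the members at 0.29, and its arrays disagreed. With loess and no background correction that mean was 0.070, below the 0.14 of *Myod1*. The probe (chromosome 4, 139010525 to 139010584, minus strand, mm8) read 114 in WT and 100.5 in *Gde5* skKO muscle on array 1. On array 2 it read 93.5 in WT and 159 in *Gde5* skKO muscle. The log2 ratios were -0.19 with p of 0.539 and 0.76 with p of 0.0171, so Cy3 was the brighter channel on both arrays. By limma the fold was 1.11 with an interval from 0.955 to 1.30, and its normexp ratios were 0.17 and 0.14. Because whole muscle was used, a difference in the number of satellite cells and one in *Pax7* RNA per cell could not be told apart. *Six4* (chromosome 12, 74019460 to 74019519, minus strand, mm8) was well above background only in the *Gde5* skKO channel of array 1. It read 40.3 in WT and 34.8 in *Gde5* skKO muscle there, and 31.5 and 44.0 on array 2.

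Taken by direction alone, 3 of the 7 members (*Myod1*, *Myog* and *Myf6*) were higher on both arrays, 0 were lower on both and 4 (*Mef2a*, *Mef2c*, *Mef2d* and *Pax7*) had opposite directions. Over all measured genes 29.2% were higher on both arrays, 25.3% lower on both and 45.6% opposite. With the normexp ratios the 3 higher on both were *Myod1*, *Mef2d* and *Pax7*, *Mef2a* was lower on both, and *Myog*, *Myf6* and *Mef2c* were opposite. *Myod1* was thus the only one of the 7 that read higher on both arrays with either set of ratios. The mean log2 ratios of the 7 ran from -0.18 for *Mef2a* to 0.29 for *Pax7* with a median of 0.13, against a median of 0.015 over all measured genes.

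Relatives and partners of these factors were also mostly not called. Of 25 measured family and partner factors 1 was called higher and 1 lower, or 4% each against 1.58% and 1.73% of all genes. Their median log2 ratio was 0.019. Like all gene lists below, this one was written with earlier results of these arrays known, so its count is no independent support. *Mstn*, myostatin, was the lower one, and it is a secreted inhibitor of muscle growth and not itself a relative or partner factor. Its signal was 3698 in WT and 2288 in *Gde5* skKO muscle on array 1 and 3974 and 2186 on array 2, so both *Gde5* skKO signals lay below both WT signals. The log2 ratios were -0.69 and -0.86, and limma's adjusted p was 0.0272. *Tead4*, a TEA domain factor of muscle differentiation, was the higher one, with ratios of 2.19 and 0.73. Its WT signal on array 1, 21.9, was not well above background, and limma put its log2 ratio at 0.27 with an adjusted p of 0.576.

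Among 33 measured repressors and co-regulators, 0 were called higher and 2 lower, or 6.06% lower against 1.73% of all genes, with a median of -0.046. Earlier results were known for this list too, so its count is no independent support. *Id1*, an inhibitor that binds E proteins and keeps them from the myogenic factors, read 1350 in WT and 955 in *Gde5* skKO muscle on array 1 and 1134 and 801 on array 2. Its log2 ratios were -0.50 and -0.50, and its other probe was at -0.44. *Camk2a*, a calcium- and calmodulin-dependent kinase, read 6426 in WT and 4437 in *Gde5* skKO muscle on array 1 and 6934 and 4555 on array 2. The ratios were -0.53 and -0.61, with the other probe at -0.28. By limma neither passed after adjustment, with adjusted p of 0.165 for *Id1* and 0.0669 for *Camk2a*. The outermost readings of the list, *Snai1* at a mean log2 ratio of 0.59 and *Twist1* at -0.87, are both transcriptional repressors and were not called, as each had opposite directions on the arrays and a channel not well above background.

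Several target genes of the myogenic regulatory factors were called higher, on a list written with earlier results of these arrays known, so its count is no independent support. Of 25 measured, 5 were called higher, or 20.0% against 1.58% of all genes, and 0 lower, and the median log2 ratio was 0.19, or 0.071 with normexp ratios. *Myh3* read 106 in WT and 410 in *Gde5* skKO muscle on array 1 and 136 and 384 on array 2, so both *Gde5* skKO signals lay above both WT signals. Its log2 ratios were 1.95 and 1.49, its probes had means from 1.72 to 1.88, and the limma ratio was 0.86 with an adjusted p of 0.0159. *Myh3* is normally low in adult limb muscle. *Chrna1* read 2447 in WT and 4304 in *Gde5* skKO muscle on array 1 and 2406 and 4327 on array 2, with ratios of 0.81 and 0.85 and an adjusted p of 0.0159.

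*Cdkn1a*, the cyclin-dependent kinase inhibitor p21 that *Myod1* induces as myoblasts leave the cell cycle, rose with ratios of 0.86 and 0.82, from 280 to 508 and from 286 to 504. *Cdkn1c*, the related inhibitor p57, rose from 2258 to 3020 and from 2143 to 2880, with ratios of 0.42 and 0.43. *Ncam1*, a neural cell adhesion molecule that is also found on satellite cells and denervated fibres, rose by its brightest probe, from 556 to 841 and from 677 to 936, with ratios of 0.60 and 0.47. Its 4 probes ranged from -0.27 to 0.53 with a mean of 0.11, so its call rests on 1 probe. After limma's adjustment these 3 did not pass, with adjusted p of 0.0831 for *Cdkn1a*, 0.251 for *Cdkn1c* and 0.259 for *Ncam1*. The lowest gene of the list, *Mybph*, a myosin-binding protein, was at -0.50 and -0.28 and was not called.

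Most members of this list were not called, among them the atrogenes *Fbxo32* at a mean of 0.010 and *Trim63* at -0.21, and *Ckm* and *Des* at 0.012 and 0.039, which were picked after their values were seen. *Mymk*, *Chrnd*, *Chrng* and *Musk* were not measured. Of the 18 measured targets with a promoter window, 17 held an E-box and 9 held CAGCTG, against 67.9% and 18.1% of the 9374 measured genes with one. Among called genes of any kind, 71.4% of the 154 higher and 70.2% of the 168 lower ones held an E-box.

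**Figure D3:**
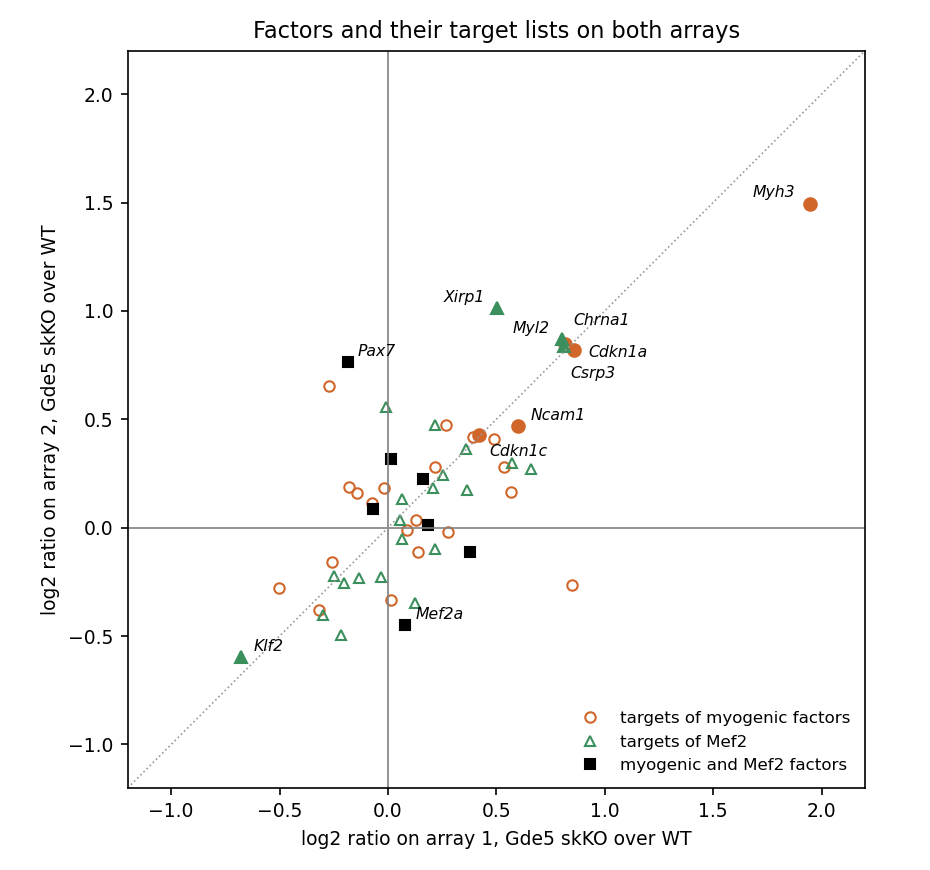
Log2 ratio of *Gde5* skKO over WT on array 1 (horizontal axis) and array 2 (vertical axis) for the measured targets of the myogenic regulatory factors (orange circles), targets of Mef2 (green triangles) and the 7 measured factors (black squares), with filled circles and triangles for called genes. The called targets lie to the upper right or, for *Klf2*, to the lower left, as a call requires, while *Pax7* and *Mef2a* have opposite signs on the arrays. The dotted line marks equal ratios.

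Targets of Mef2 went both ways. Of 23 measured, 3 were called higher and 1 lower, or 13.0% and 4.35% against 1.58% and 1.73% of all genes, with a median of 0.10. This list too was written with earlier results of these arrays known, so its count is no independent support. *Myl2*, the slow and cardiac regulatory myosin light chain, read 17183 in WT and 30014 in *Gde5* skKO muscle on array 1 and 17330 and 31677 on array 2, with ratios of 0.80 and 0.87. *Csrp3*, muscle LIM protein, rose from 3800 to 6665 and from 3605 to 6436, with ratios of 0.81 and 0.84. *Xirp1*, an actin-binding protein of fibre attachment sites, rose from 1494 to 2118 and from 1404 to 2835, with ratios of 0.50 and 1.01. In each of these 3 both *Gde5* skKO signals lay above both WT signals, and limma's adjusted p was 0.0124, 0.0159 and 0.0406 in turn.

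*Klf2*, a Krüppel-like factor that endothelial cells also express strongly, fell from 6833 to 4277 and from 6761 to 4472, with ratios of -0.68 and -0.60 and an adjusted p of 0.0352. Its other probe was at -0.022, so this call too rests on 1 probe. *Slc2a4*, the insulin-responsive glucose transporter and a textbook Mef2 target, was at 0.057 and 0.037 and *Ppargc1a*, a co-activator of mitochondrial genes, at 0.57 and 0.30, neither of them called and both picked after their values were seen. Of the 17 measured Mef2 targets with a window, 3 held the strict MEF2 consensus and 6 the relaxed one, against 2.46% and 5.30% of measured genes.

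**Figure D4:**
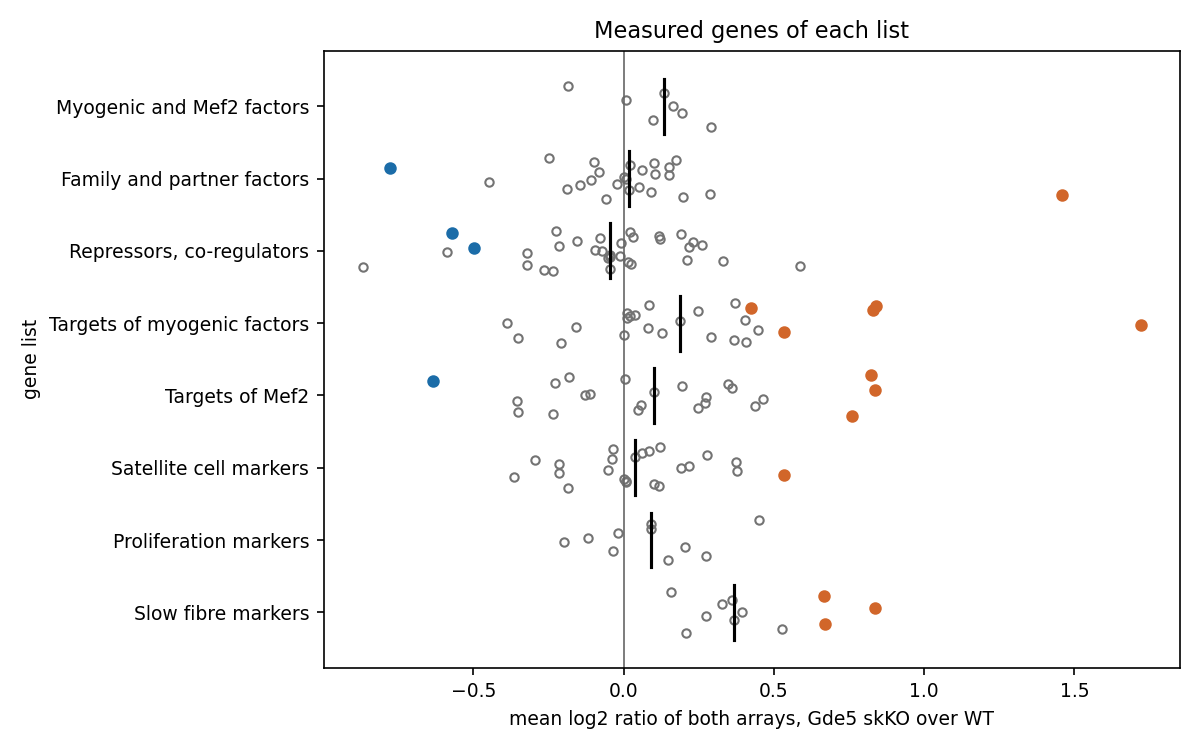
Mean log2 ratio of both arrays, *Gde5* skKO over WT (horizontal axis), for each measured gene of 8 lists (vertical axis), with called genes filled, orange for higher and blue for lower, and a black line at each list's median. No factor of the top row is filled, and of the 8 lists drawn, which leave out markers of other cell types, the slow fibre markers have the median farthest from 0, at 0.37.

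Some lists overlap, and markers of fibre and cell types moved beside them. *Myl2* is also a slow fibre marker, on a list likewise written with earlier results known. Of 11 measured slow fibre markers 3 were called higher and 0 lower, or 27.3% higher against 1.58% of all genes, with a median of 0.37. The other 2 were *Tnni1*, slow skeletal troponin I, at 0.67 and *Casq2*, a calsequestrin of slow and cardiac muscle, at 0.67. Summed signals of the slow list were 191431 and 198205 in WT and 258559 and 262354 in *Gde5* skKO muscle, and the part of this difference in the Mef2 target result was not tested. The general fibre markers, such as *Myh1* at a mean of 0.31 and *Pvalb* at -0.34, gave 0 calls of 16, where 3.31% of all genes were called.

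Satellite cell markers other than *Pax7* gave 1 higher call, *Ncam1*, which is shared with the target list. That is 1 of 23 measured, or 4.35% against 1.58% of all genes, and the list's median was 0.039. Summed signals of the list were 25513 and 26905 in WT and 26106 and 27239 in *Gde5* skKO muscle. The largest parts came from *Cd34* and *Des*, at 5381 and 4994 in WT on array 1. Because *Des* is also on the target and smooth muscle lists, the sums are no measure of satellite cell number. *Notch1*, a receptor that keeps satellite cells quiescent, was lowest at -0.41 and -0.32 and was not called. Proliferation markers gave 0 calls of 10 measured of 17, where 3.31% of all genes were called. *Birc5* was highest at a mean of 0.45 and *Mcm6* lowest at -0.20, and *Top2a*, *Ccnb1* and *Cdk1* were not measured.

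Of the other cell types, fat and liver transcripts moved most. These marker lists too were written with earlier results of these arrays known, so their counts are no independent support. Fat markers gave 5 lower calls of 7 measured, or 71.4% against 1.73% of all genes, with a median of -0.70 (-0.34 with normexp ratios). Their summed signals overlapped, at 61523 and 63402 in WT and 64013 and 60533 in *Gde5* skKO muscle, and most of them came from *Fabp4*, at a mean log2 ratio of 0.054, and *Lpl*, which fibres also express, at 0.15. The 5 called genes alone summed to 8139 and 7879 in WT and 4365 and 4376 in *Gde5* skKO muscle. They were *Adipoq*, the adipocyte hormone adiponectin, at -0.97 and -1.03 on the arrays, and *Cfd*, *Retn*, *Cidec* and *Plin1* at means of -0.90, -0.83, -0.70 and -0.69. After limma's adjustment *Adipoq* and *Cfd* passed, with adjusted p of 0.0220 and 0.0137, and the others did not. *Lep* and *Ucp1* were not measured. Liver markers gave 5 lower calls (*Ahsg*, *Fgg*, *Mup1*, *Rbp4* and *Hp*, at means from -1.09 to -0.80) and 1 higher (*Apoh*, at 0.81) of 9 measured. That is 55.6% lower and 11.1% higher, against 1.73% and 1.58% of all genes. Of these liver calls only *Mup1* passed limma's adjustment, with an adjusted p of 0.0241. The liver list had a median of -0.80, or -0.32 with normexp ratios. It summed to 3764 and 3635 in WT and 2129 and 2234 in *Gde5* skKO muscle, while *Apoa1*, *Apoa2*, *Ttr* and *Cyp3a11* were not measured. Endothelial markers gave 1 higher call of 10, *Kdr* at 0.42, or 10% against 1.58% of all genes. Their median was 0.033, with sums of 32004 and 33327 in WT and 31053 and 34291 in *Gde5* skKO muscle. Fibroblast, immune, nerve and smooth muscle markers gave 0 calls of 10, 7, 7 and 6 measured, where 3.31% of all genes were called. The part of other cell types in the *Mstn*, *Id1* and *Klf2* results was not tested.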

How the data were processed

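Two-colour Agilent whole mouse genome arrays compared *Gde5* skKO with WT GAS muscle on 2 dye-swapped hybridizations of 1 slide and 1 scan. The authors' files are scanner output of Feature Extraction 9.5.3.1 (version 9.5 in the submitters' processing notes). In the authors' files each spot has the log10 of Cy5 over Cy3, background-subtracted and dye-normalized, and a p-value from the software's error model within that array. The deposited files also give the intensity of each spot and of its local background per channel. The series table, deposited as the same log10 ratio to fewer digits and not turned, had a median of 0 in both columns.

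From these, log2 ratios were computed and given the direction *Gde5* skKO over WT by the dyes in the labels. Control spots and spots with outlier or background marks, 195 on array 1 and 221 on array 2 of 43379, were left out. Ratios and signals were averaged over the spots of a probe, on the log scale, and p-values and errors were taken as the median. A probe with several spots was well above background when at least 50% of them were. A gene was represented by its brightest measured probe over both channels, and probes were named through a RefSeq table, by accession, symbol or synonym. Coordinates of probes are those of the arrays on mm8, those of promoters RefSeq's on GRCm38.p6, and exon positions were not analysed here. Intervals are 95% intervals from the software's error, or limma's. Having 2 arrays limits the precision, and no test was made across mice.

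limma 3.58.1 under R 4.3.3, on normexp (offset 50) and loess ratios, gave the moderated test with Benjamini-Hochberg adjustment, over 19073 probes for members and 13589 genes otherwise. Its p-values and intervals rest on the spread between 2 hybridizations, drawn toward a spread pooled over all genes or probes (prior degrees of freedom 6.98 and 6.81). That spread may be technical. The rest ran in Python 3.11.15 with pandas 2.3.3, numpy 2.4.6 and matplotlib 3.10.9. The calling steps were tested on simulated data.

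The members and gene lists were chosen with earlier results of these data known, and the relaxed MEF2 consensus was added after the promoters were read. Genes named are every member with every probe, *Gpcpd1*, and from each list the called genes (up to 8) and the highest and lowest, except that genes of the cell type marker lists are named only beside a result they touch. Genes picked otherwise are said to be. Alternatives were other background corrections, the series table, each array alone, all probes of a gene, limma, the methods' t-test on channel values, other thresholds and filters, and marked spots kept, the last chosen after seeing the data. A planned comparison of member proteins was not run.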

Additional observations from a re-analysis of the deposited data

How the results depend on the processing

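The 215 higher and 235 lower genes became no more than 1.5 times as many or as few with normexp or uncorrected loess ratios, the series table, all probes of a gene, no filter and the filter on both channels. The first 3 kept the Feature Extraction p, so there only a direction could change. They were 575 and 579 by limma at a p under 0.05 before adjustment, 39 and 68 after Benjamini-Hochberg adjustment, 458 and 440 by the methods' t-test at its threshold and 0 and 0 after adjustment, and 107 and 127 at a Feature Extraction p under 0.01. With 1 array alone they were 928 to 974 higher and 724 to 914 lower. Stricter thresholds and single arrays change counts by construction, and for the other tests the cause was not tested.

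The count of members called stayed at 0 under those alternatives, with the following exceptions. It was 1 (*Pax7*) by the methods' t-test before adjustment, and with 1 array alone it ran from 0 to 2, the 2 being *Mef2a* and *Pax7* on array 2, where 13.9% of all genes pass. Keeping marked spots left it at 0. Alternatives that needed both arrays and kept the Feature Extraction p-values of the unmarked spots could only give 0. No member had such a p-value under 0.05 on array 1, where the lowest was 0.0673, for *Mef2c*. Leaving out 1 array turned the direction of 4 members, whose ratios ran from -0.11 to 0.38 for *Mef2c*, -0.45 to 0.080 for *Mef2a*, -0.070 to 0.085 for *Mef2d* and -0.19 to 0.76 for *Pax7*. Averaging over all probes turned *Mef2d* to -0.056 and moved *Mef2a* from -0.18 to -0.64, since that mean takes in the surrogate value of its dimmest probe. Without background correction *Pax7* moved from 0.29 to 0.070. Those of *Myod1*, *Myog* and *Myf6* kept their direction in each of these alternatives, though single arrays turned for *Myog* and *Myf6* with normexp ratios. With the filter on both channels 0 partner factors were higher, since *Tead4* dropped out, and the other list counts stayed the same. A block for the slide was not run because 1 slide holds both arrays. With both genotypes on every array, a ratio is already the difference within a pair, limma's test on these ratios is paired, and no further replicate block could be fitted. The dimmest members, *Pax7*, *Six4* and *Myf5*, are limited most by signal over background.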
